A study of Mus musculus with 16 samples.

Results

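The 32 genes described here mark macrophages and other myeloid cells, and were followed in the heart apex of mice bred to lose AKT1, AKT2 or both in cardiomyocytes. A gene was included when the RefSeq accession of an array probe mapped to one of 32 symbols chosen as markers of resident, monocyte-derived and antigen-presenting macrophages. All 32 were on the array, among 22911 genes with a symbol, and they had 46 probes. The signal of 31 of them could be tested, among 13725 genes in all. In every group 30 of them were well above background on each of the 4 arrays. Timd4 passed through the AKT1 KO arrays alone, since it was well above background there on 4 arrays, on 3 in AKT2 KO, on 2 in DKO and on 3 in control hearts. The 2 probes of Msr1, a scavenger receptor, were each well above background on 1 DKO array and on no other array, so Msr1 was not tested.

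Macrophages are phagocytes that live in every tissue, and in the heart they clear dying cells and debris, sample antigens and signal to fibroblasts and cardiomyocytes. Some descend from cells that settled in the heart before birth and renew in place, and others come from blood monocytes. Most need the growth factor receptor CSF1R to survive, and the transcription factor PU.1 drives many of the genes that mark them. AKT1 and AKT2 are protein kinases that relay insulin and growth factor signals.

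The samples were hearts of male C57Bl/6 mice, 4 hearts and 4 arrays per group. The AKT1 KO group carried AKT1 flox/flox alleles, the AKT2 KO group AKT2 flox/flox alleles, the AKT1+AKT2 DKO group both, and the control group no floxed allele. Mice of all 4 groups, controls included, were heterozygous for MHC-mercremer, a tamoxifen-inducible Cre recombinase driven by the cardiomyocyte promoter αMHC. Recombination was induced in all of them at 3 months of age with hydroxytamoxifen, at 500 µg per day over 5 days, and the hearts were collected 21 days later. The promoter directs the recombinase to cardiomyocytes, and whether macrophages kept both genes was not tested. The titles also read "untreated", although the labels name tamoxifen for every sample.

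Apex RNA holds all the cells of the tissue. In such bulk RNA, fewer cells of a type and less RNA per cell cannot be told apart. Levels are log2 intensities (background subtracted) relative to the 75th percentile of all spots of the same array, so 0 is that percentile and a difference of 1 is a doubling. That percentile lay between 492.1 and 809.4 intensity units, and 43.1% to 54% of probes per array were well above background. Akt2 was lower than in control by 2.37 log2 units in AKT2 KO and by 2.0 in DKO hearts. Akt1 was not lower: its brightest probe gave log2 changes of 0.10 for AKT1 KO hearts and -0.02 for DKO hearts, and a second probe gave 0.28 and 0.22. Where these probes lie relative to the deleted exons is not known here, so the AKT1 label could not be checked. DKO replicate 3 stood apart, scoring 78.6 on the leading principal component of all genes, where the other DKO arrays scored 42.5 to 47.8. Each of 2 slides held 2 arrays of each group, and each group lay in an array column of its own, so column and group cannot be told apart. Markers of other cell types moved in the DKO hearts too: all 7 fibroblast markers were called higher (summed linear level 287 to 385.6 in DKO hearts, against 183.2 to 194.4 in control hearts) and all 8 cardiomyocyte markers lower (2074 to 2455 in DKO hearts, against 2799 to 3200 in control hearts). Their part in the results below was not tested.

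Promoter windows in the RefSeq table for GRCm38.p6 run from 250 bases before to 50 after each start site, and 21 of the 32 genes had one (24 windows). One gene is shown for each role described below, the one with a window and the smallest adjusted p in DKO against control hearts, so that the promoters of genes from different roles can be read side by side. Capitals mark GAGGAA, the core bound by PU.1 and related ETS factors, TGANTCA, bound by AP-1, and GGAA and GAAA set 2 bases apart, a composite element of ETS and IRF factors, each on either strand. The reverse of the core reads TTCCTC.
Cd68 (GRCm38.p6, chr11:69666121-69666420, minus strand): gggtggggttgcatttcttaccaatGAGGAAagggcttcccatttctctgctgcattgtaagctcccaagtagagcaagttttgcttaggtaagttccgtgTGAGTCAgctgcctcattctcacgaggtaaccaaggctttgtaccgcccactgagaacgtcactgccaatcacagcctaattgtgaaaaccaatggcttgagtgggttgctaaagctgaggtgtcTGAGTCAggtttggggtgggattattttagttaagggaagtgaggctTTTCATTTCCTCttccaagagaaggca
Mrc1 (GRCm38.p6, chr2:14229164-14229463, plus strand): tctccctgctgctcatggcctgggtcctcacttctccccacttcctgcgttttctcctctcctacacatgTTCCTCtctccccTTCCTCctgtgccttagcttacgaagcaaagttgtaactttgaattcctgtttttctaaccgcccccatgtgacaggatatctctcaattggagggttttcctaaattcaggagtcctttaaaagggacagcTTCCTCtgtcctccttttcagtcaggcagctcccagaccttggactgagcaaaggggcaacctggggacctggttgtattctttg
C1qc (GRCm38.p6, chr4:136892865-136893164, minus strand): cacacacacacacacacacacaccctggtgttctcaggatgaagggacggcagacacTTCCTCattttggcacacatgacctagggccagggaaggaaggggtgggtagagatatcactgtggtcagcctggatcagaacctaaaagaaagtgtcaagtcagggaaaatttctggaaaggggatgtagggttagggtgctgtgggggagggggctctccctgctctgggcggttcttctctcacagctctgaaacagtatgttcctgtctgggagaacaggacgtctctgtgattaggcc
Trem2 (GRCm38.p6, chr17:48346151-48346450, plus strand): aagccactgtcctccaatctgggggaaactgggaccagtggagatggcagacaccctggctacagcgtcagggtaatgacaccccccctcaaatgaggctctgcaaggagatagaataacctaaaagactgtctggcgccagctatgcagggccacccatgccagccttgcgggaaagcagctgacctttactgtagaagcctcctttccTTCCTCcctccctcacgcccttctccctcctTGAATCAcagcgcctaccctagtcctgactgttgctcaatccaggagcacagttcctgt
Laptm5 (GRCm38.p6, chr4:130913066-130913365, plus strand): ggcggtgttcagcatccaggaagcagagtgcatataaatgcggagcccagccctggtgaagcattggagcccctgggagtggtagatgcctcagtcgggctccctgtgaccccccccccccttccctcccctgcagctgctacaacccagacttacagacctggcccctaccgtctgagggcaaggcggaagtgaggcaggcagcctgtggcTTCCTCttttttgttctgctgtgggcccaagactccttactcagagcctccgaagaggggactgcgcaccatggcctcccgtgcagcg
Ctss (GRCm38.p6, chr3:95526536-95526835, plus strand): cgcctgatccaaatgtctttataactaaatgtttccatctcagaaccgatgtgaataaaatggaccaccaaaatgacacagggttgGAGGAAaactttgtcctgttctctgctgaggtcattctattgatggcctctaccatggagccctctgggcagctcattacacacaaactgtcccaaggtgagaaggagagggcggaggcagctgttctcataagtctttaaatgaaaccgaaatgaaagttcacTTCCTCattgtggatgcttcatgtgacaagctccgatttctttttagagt
H2-Aa (GRCm38.p6, chr17:34287774-34288073, minus strand): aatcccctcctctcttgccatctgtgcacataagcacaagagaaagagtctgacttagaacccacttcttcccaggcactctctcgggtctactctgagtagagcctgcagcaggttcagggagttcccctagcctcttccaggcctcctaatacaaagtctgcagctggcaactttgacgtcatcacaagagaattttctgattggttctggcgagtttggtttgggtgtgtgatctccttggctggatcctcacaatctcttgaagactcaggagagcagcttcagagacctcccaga
In Cd68, the capitals TTTCATTTCCTC are a composite that overlaps a PU.1-type core. The core was found in 13 of the 24 windows (54.2%), belonging to 12 of 21 genes, against 28.3% of all 32851 windows. The AP-1 letters stood in 3 of the 24 windows, against 7.81% of all windows, and the composite in 3, against 2.72%. The window of H2-Aa held none of these letters. These matches describe the letters in these windows and are not shown to be bound.

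In DKO hearts, 14 of the 31 tested markers were higher than in control hearts and none was lower (limma, adjusted p below 0.05). The double knockout changed a large share of the transcriptome, with 45.6% of all genes called, and the 14 are 45.2% of the markers, a share near that of genes in general. With the brightest probe of each gene, the calls among the markers all ran one way. Of all genes, 24.4% were called higher and 21.2% lower. With the mean of the probes of each gene, limma also called Itgam lower (-0.68, adjusted p = 0.00102). The median log2 change of the markers was 0.48, against 0.02 over all genes, and 27 of 31 lay above 0, against 51.4% of all genes. On all 4 DKO arrays 14 markers lay above all 4 control arrays (23.8% of all genes did), and Folr2 was the 1 marker that lay below (20.6%). Of the 14 called markers, 8 stayed called when any single array was left out: Cd68, Mrc1, C1qc, Trem2, Laptm5, Lyz1, Ctss and Cd14. Without DKO replicate 2 those 8 were the only calls, and without control replicate 1 or 4 the count was 9.

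**Figure D1:**
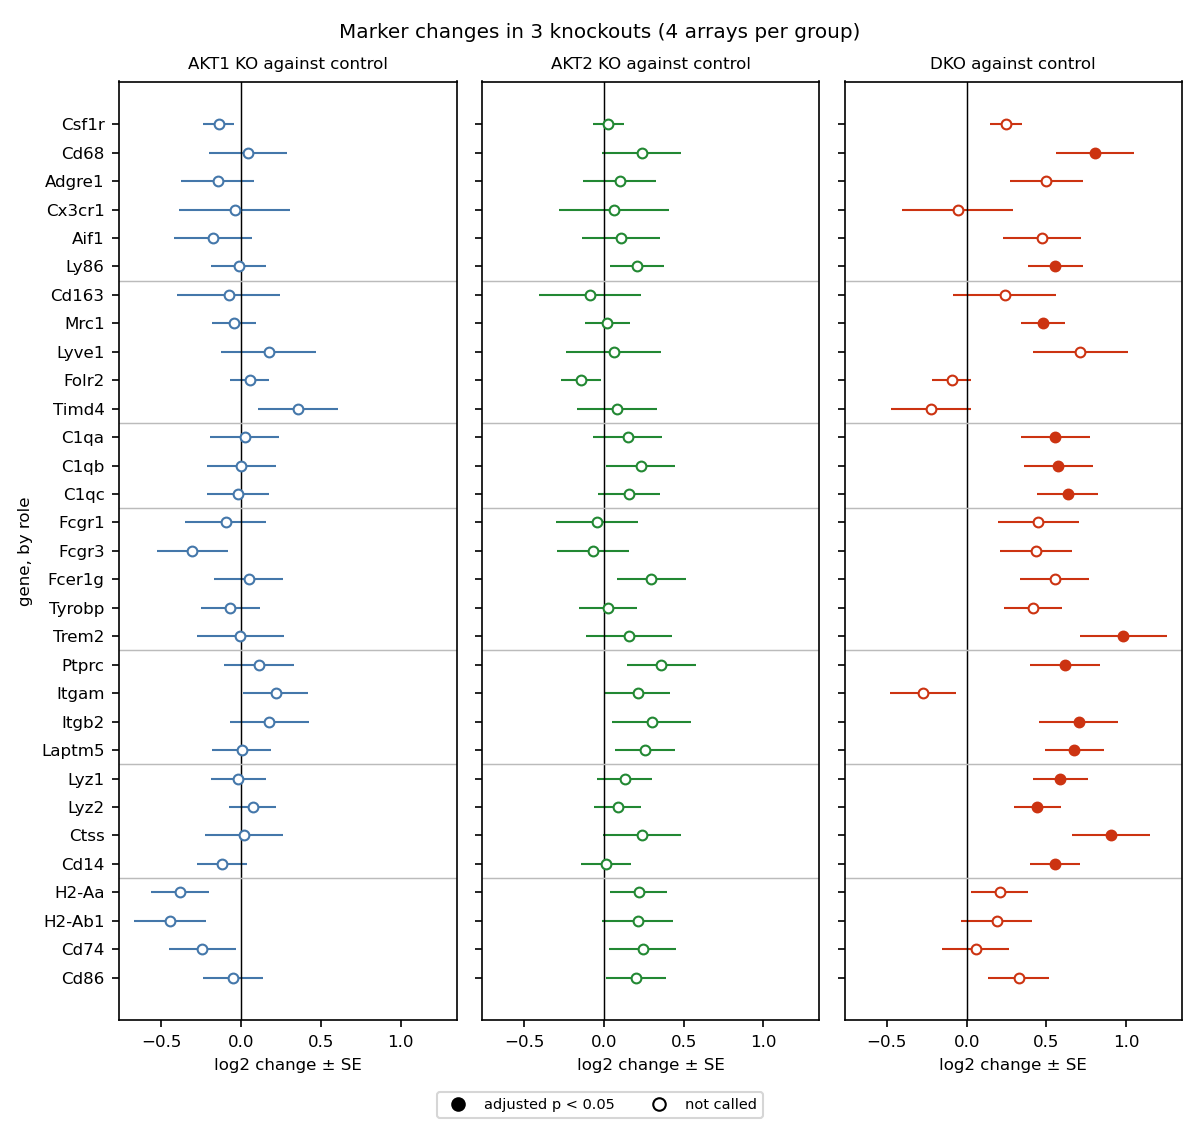
Log2 change ± SE of 31 macrophage and myeloid markers in AKT1 KO, AKT2 KO and DKO hearts against control hearts (4 arrays per group), in order of role. Filled points passed the adjusted p of 0.05: there are 14 in the DKO panel, all to the right of 0, and 0 in the panels of the single knockouts.

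The single knockouts gave no call among the markers. In AKT1 KO hearts limma called 0 of 31 (0.794% of all genes were called), and 0 had an unadjusted p below 0.05 (7.41% of all genes). Their median log2 change was -0.02, against -0.03 over all genes, and 13 of 31 lay above 0 (40.3% of all genes). In AKT2 KO hearts 0 of 31 were called (0.131% of all genes), again with 0 at an unadjusted p below 0.05 (3.23% of all genes). Their median was 0.15, against -0.02 over all genes, and 27 of 31 lay above 0 (42.3% of all genes). In AKT1 KO hearts H2-Aa lay below all controls on all 4 arrays (6.29% of all genes did), with a change of -0.38 ± 0.18 (SE, adjusted p = 0.686), and Timd4 above (2.9%), with 0.36 ± 0.25 (SE, adjusted p = 0.909). Timd4 passed the background filter through the AKT1 KO arrays alone, which favours high values there, so its separation is not support for a rise. All 4 antigen presentation genes had changes below 0 there (median -0.31). The largest change of a marker in AKT2 KO hearts was that of Ptprc (0.36 ± 0.22 SE, adjusted p = 1). Both comparisons and the one for DKO hearts share the same 4 control arrays. They also share 1 spread per gene, pooled over all 4 groups, the DKO hearts included.

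Among the lineage markers, Cd68 and Ly86 rose in DKO hearts. Cd68, a glycoprotein of the macrophage lysosome, read 1.45, 1.81, 2.41 and 1.27 in DKO hearts, against 0.83, 1.08, 1.0 and 0.82 in control hearts. All 4 DKO values lay above all 4 control values, with DKO replicate 3 the highest. The log2 change was 0.80 ± 0.25 (SE, adjusted p = 0.0152). A second Cd68 probe gave 1.19 ± 0.26 (probe adjusted p = 0.00171). Ly86, which pairs with a Toll-like receptor relative on the surface of myeloid and B cells, read 1.13, 1.64, 0.84 and 0.97 in DKO hearts, against 0.54, 0.65, 0.72 and 0.44 in control hearts. The groups did not overlap, and here DKO replicate 2 was the highest. Its change was 0.56 ± 0.17 (SE, adjusted p = 0.0162), and adjusted p = 0.0513 without DKO replicate 2 ended the call.

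The growth factor receptor Csf1r, read at 4.11, 4.45, 4.06 and 4.00 in DKO hearts and 3.82, 3.86, 4.04 and 3.91 in control hearts, missed the threshold with a change of 0.25 ± 0.10 (SE, adjusted p = 0.0551). On DKO replicate 4 it lay within the control values. Without DKO replicate 3 it passed (0.28, adjusted p = 0.0357). A dimmer second Csf1r probe gave 0.77 (probe adjusted p = 0.142), with 1.60 on DKO replicate 3 and -0.97 to -0.87 on the other DKO arrays. Adgre1, which encodes the macrophage surface protein F4/80, and Aif1, an actin-binding protein of macrophages, both had 3 DKO arrays above and replicate 3 below all control arrays. Their changes were 0.50 ± 0.23 (SE, adjusted p = 0.0868) for Adgre1 and 0.47 ± 0.25 (SE, adjusted p = 0.132) for Aif1. Without DKO replicate 3 they became 0.73 (adjusted p = 0.0053) and 0.71 (adjusted p = 0.0123). The fractalkine receptor Cx3cr1, a marker of resident cells and of patrolling monocytes, had the widest spread of the 31 among the DKO arrays. It read 0.11, 1.18, -1.13 and -0.05 in DKO hearts, against 0.11, -0.01, 0.18 and 0.05 in control hearts, with replicate 2 far above and replicate 3 far below the control values.

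**Figure D2:**
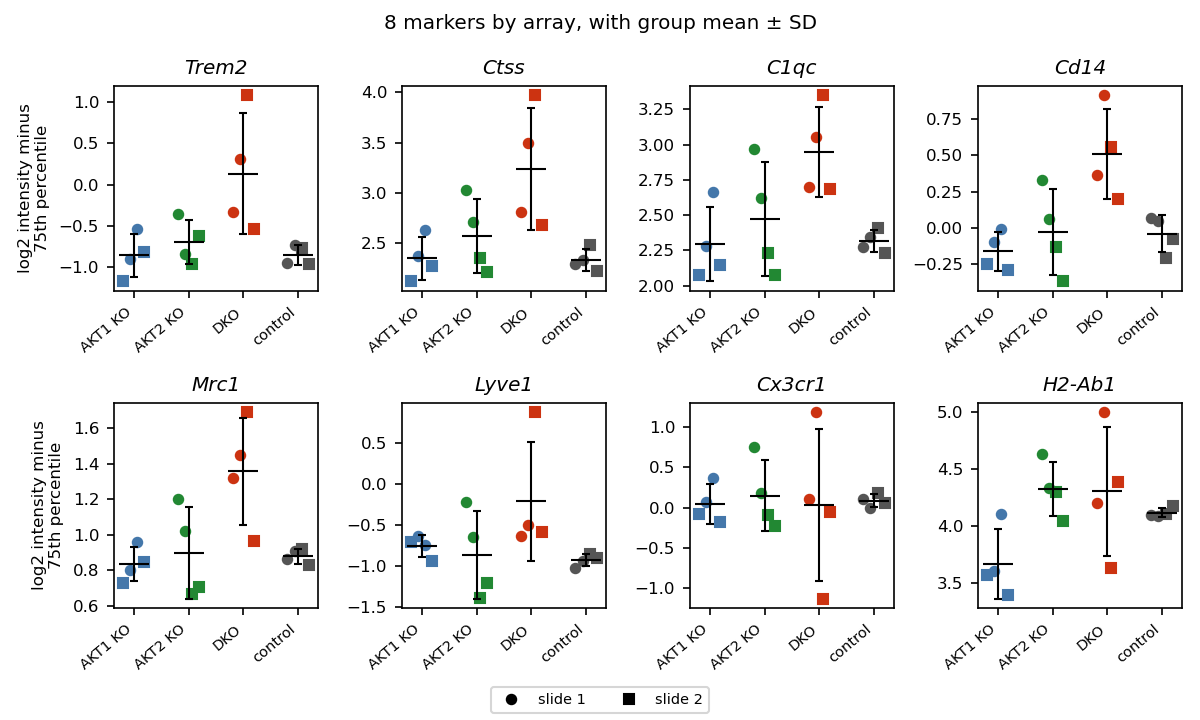
Log2 levels (relative to the 75th percentile of each array) of 8 markers on each array, by group, with the group mean ± SD (4 arrays per group) and the slide of each array by symbol. Trem2, Ctss, C1qc, Cd14 and Mrc1 have every DKO array above every control array, and Lyve1 too, while the DKO arrays of Cx3cr1 and H2-Ab1 lie on both sides of the control values.

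Of the receptors that mark resident cardiac macrophages, Mrc1 rose and the other 4 did not pass. Mrc1, the mannose receptor, which takes up glycoproteins, read 1.32, 1.45, 1.69 and 0.97 in DKO hearts, against 0.86, 0.91, 0.92 and 0.83 in control hearts. The groups did not overlap, although replicate 4 lay just above the highest control. The change was 0.48 ± 0.14 (SE, adjusted p = 0.0122). Lyve1, a hyaluronan receptor shared with lymphatic endothelium, read -0.64, -0.50, 0.87 and -0.59 in DKO hearts, against -1.02, -0.94, -0.85 and -0.90 in control hearts. All 4 DKO arrays were higher than all control arrays, and replicate 3 was far above the rest. The change of 0.71 ± 0.30 (SE, adjusted p = 0.0629) missed the threshold. Without that array it was 0.35 (adjusted p = 0.164).

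Cd163, which takes up haemoglobin bound to haptoglobin, read -0.37, -0.09, 1.10 and -0.59 in DKO hearts, against -0.18, -0.16, -0.27 and -0.29 in control hearts. Its value on replicate 3 was high, replicates 1 and 4 lay below all controls, and the change of 0.24 ± 0.32 (SE, adjusted p = 0.574) turned to -0.12 without replicate 3. Folr2, a folate receptor, had the narrowest DKO spread of the markers, with 1.06, 1.09, 0.97 and 1.08 in DKO hearts, against 1.13, 1.13, 1.20 and 1.12 in control hearts. All 4 DKO values lay below the controls, by -0.09 ± 0.12 (SE, adjusted p = 0.559), which did not pass. Timd4, a receptor for phosphatidylserine on dying cells, was dim throughout, with a difference of -0.22 ± 0.25 (SE, adjusted p = 0.492). Without DKO replicate 3 its change was 0.07.

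All 3 chains of complement C1q, the protein that starts the classical complement cascade and is made by macrophages, were called higher in DKO hearts. The 3 genes are neighbours on chromosome 4. C1qc read 2.70, 3.05, 3.35 and 2.69 in DKO hearts, against 2.27, 2.35, 2.41 and 2.23 in control hearts, and the groups did not overlap. Its change was 0.63 ± 0.19 (SE, adjusted p = 0.0152). C1qa averaged 2.16 ± 0.23 in DKO hearts and 1.60 ± 0.09 in control hearts (SD), and changed by 0.56 ± 0.22 (SE, adjusted p = 0.0482). With the replicate number as a block, the adjusted p of C1qa was 0.0536, which ended the call. When each of the 16 arrays was left out in turn, C1qa was called 6 times, with adjusted p = 0.107 without DKO replicate 2 and 0.101 without DKO replicate 3. C1qb averaged 1.91 ± 0.32 in DKO hearts and 1.33 ± 0.14 in control hearts (SD), and changed by 0.57 ± 0.22 (SE, adjusted p = 0.0425). C1qb was called 7 times of 16, with 0.102 without DKO replicate 2 and 0.101 without DKO replicate 3. All 3 chains lay above the highest control on every DKO array.

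In the group of Fc receptors, signalling adaptors and Trem2, only Trem2 rose, and the 4 Fc receptor and adaptor genes did not pass. Trem2, a lipid-binding receptor that signals through TYROBP, had the largest log2 change of the 31 in this comparison. It read -0.33, 0.31, 1.08 and -0.54 in DKO hearts, against -0.95, -0.73, -0.77 and -0.96 in control hearts. The groups did not overlap, yet the DKO values themselves spanned more than 1.5 log2 units. The change was 0.98 ± 0.27 (SE, adjusted p = 0.0084), a 1.98-fold difference, and 0.67 without DKO replicate 3 (adjusted p = 0.0122).

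Tyrobp, the adaptor itself, read 2.04, 2.48, 2.23 and 1.81 in DKO hearts, against 1.58, 1.74, 1.82 and 1.76 in control hearts. Replicate 4 lay within the control range, and the change was 0.42 ± 0.18 (SE, adjusted p = 0.0791). Fcer1g, the shared signalling chain of Fc receptors, read 2.24, 2.89, 2.86 and 2.25 in DKO hearts, against 1.89, 1.97, 2.20 and 1.97 in control hearts. No control value reached a DKO value, and the change of 0.55 ± 0.22 (SE, adjusted p = 0.051) just missed the threshold. The activating receptors Fcgr1 and Fcgr3, which bind IgG, had differences of 0.45 ± 0.26 (SE, adjusted p = 0.167) and 0.44 ± 0.22 (SE, adjusted p = 0.127) and did not pass. Fcgr1 was above all controls on DKO replicate 2 alone, and Fcgr3 on replicates 2 and 3.

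Ptprc, Itgb2 and Laptm5, of the leukocyte surface group, rose in DKO hearts, and Itgam did not. Laptm5, a lysosomal membrane protein of blood cells, read -0.47, 0.07, 0.06 and -0.56 in DKO hearts, against -1.01, -0.72, -0.83 and -1.05 in control hearts. Its groups did not overlap, and it changed by 0.68 ± 0.19 (SE, adjusted p = 0.00842). Ptprc, which encodes the pan-leukocyte phosphatase CD45, read -0.62, 0.26, -0.64 and -0.69 in DKO hearts, against -1.10, -0.97, -1.03 and -1.04 in control hearts. Replicate 2 was far above the other DKO arrays, which lay close together and still above the controls. The change was 0.61 ± 0.22 (SE, adjusted p = 0.0323), and without DKO replicate 2 adjusted p = 0.101 ended the call, as did leaving out any 1 control array. Itgb2, the beta chain of the leukocyte integrins, read -1.43, -0.74, -0.39 and -1.40 in DKO hearts, against -2.01, -1.80, -1.31 and -1.67 in control hearts. Replicates 1 and 4 lay below the highest control. The change of 0.70 ± 0.25 (SE, adjusted p = 0.0307) lost its call without DKO replicate 2 (adjusted p = 0.0787) or 3 (adjusted p = 0.0866) and without control replicates 1, 2 or 4.

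Itgam, the CD11b chain that pairs with the product of Itgb2 on myeloid cells, gave unlike values on its 2 probes. The brightest read 4.24, 4.59, 4.93 and 4.33 in DKO hearts, against 4.67, 4.93, 4.73 and 4.87 in control hearts, with 3 DKO arrays below all controls, and its change was -0.27 ± 0.20 (SE, adjusted p = 0.29). The dimmer probe, for another transcript record of the gene, averaged -2.15 ± 0.29 in DKO hearts and -1.06 ± 0.11 in control hearts (SD). It was lower by 1.10 log2 units (-1.10 ± 0.17, probe adjusted p = 0.000134). Neither probe was higher in DKO hearts, and which transcripts each detects was not tested.

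All 4 measured genes of the lysosomal, lysozyme and pattern receptor group were called higher in DKO hearts. Ctss, the cysteine protease cathepsin S, which trims the class II invariant chain, read 2.81, 3.49, 3.97 and 2.68 in DKO hearts, against 2.30, 2.33, 2.48 and 2.23 in control hearts. The groups did not overlap, and its change of 0.90 ± 0.24 (SE, adjusted p = 0.00759) was a 1.87-fold difference. Cd14, which presents lipopolysaccharide to Toll-like receptor signalling, read 0.36, 0.92, 0.56 and 0.20 in DKO hearts, against 0.07, 0.05, -0.21 and -0.07 in control hearts. Here too every DKO array was above every control array, and the change was 0.55 ± 0.16 (SE, adjusted p = 0.0104), with 0.51 on a second probe (probe adjusted p = 0.013).

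Lyz1 and Lyz2 encode closely similar lysozymes that digest bacterial walls and are neighbours on chromosome 10. Whether their probes tell the 2 transcripts apart was not tested. Lyz1 read 3.45, 3.85, 3.43 and 3.11 in DKO hearts, against 2.91, 2.86, 2.94 and 2.77 in control hearts, without overlap, and changed by 0.59 ± 0.17 (SE, adjusted p = 0.0121). Lyz2 read 0.58, 1.09, 0.79 and 0.51 in DKO hearts, against 0.11, 0.37, 0.54 and 0.19 in control hearts, with replicate 4 below the highest control. Its change was 0.44 ± 0.15 (SE, adjusted p = 0.0234), and adjusted p = 0.0783 without DKO replicate 2 or 0.0717 without control replicate 1 ended the call, as did leaving out control replicate 4.

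None of the 4 antigen presentation genes was called in DKO against control hearts. H2-Aa and H2-Ab1, the chains of the class II molecule I-A, had differences of 0.21 ± 0.18 (SE, adjusted p = 0.373) and 0.19 ± 0.22 (SE, adjusted p = 0.521). H2-Ab1 read 4.20, 4.99, 3.63 and 4.39 in DKO hearts, against 4.10, 4.08, 4.11 and 4.17 in control hearts, with replicate 3 below all controls and the other 3 above. Its 4 kept probes gave changes of 0.16 to 0.21. Cd74, the invariant chain that guides class II molecules to the lysosome, differed by 0.06 ± 0.21 (SE, adjusted p = 0.85), and Cd86, a costimulator of T cells, by 0.33 ± 0.19 (SE, adjusted p = 0.175). Of 5 other measured class II genes, H2-DMa, which helps load peptides, was the 1 called higher (0.56 ± 0.22, adjusted p = 0.0491), and the median of the 5 was 0.17.

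**Figure D3:**
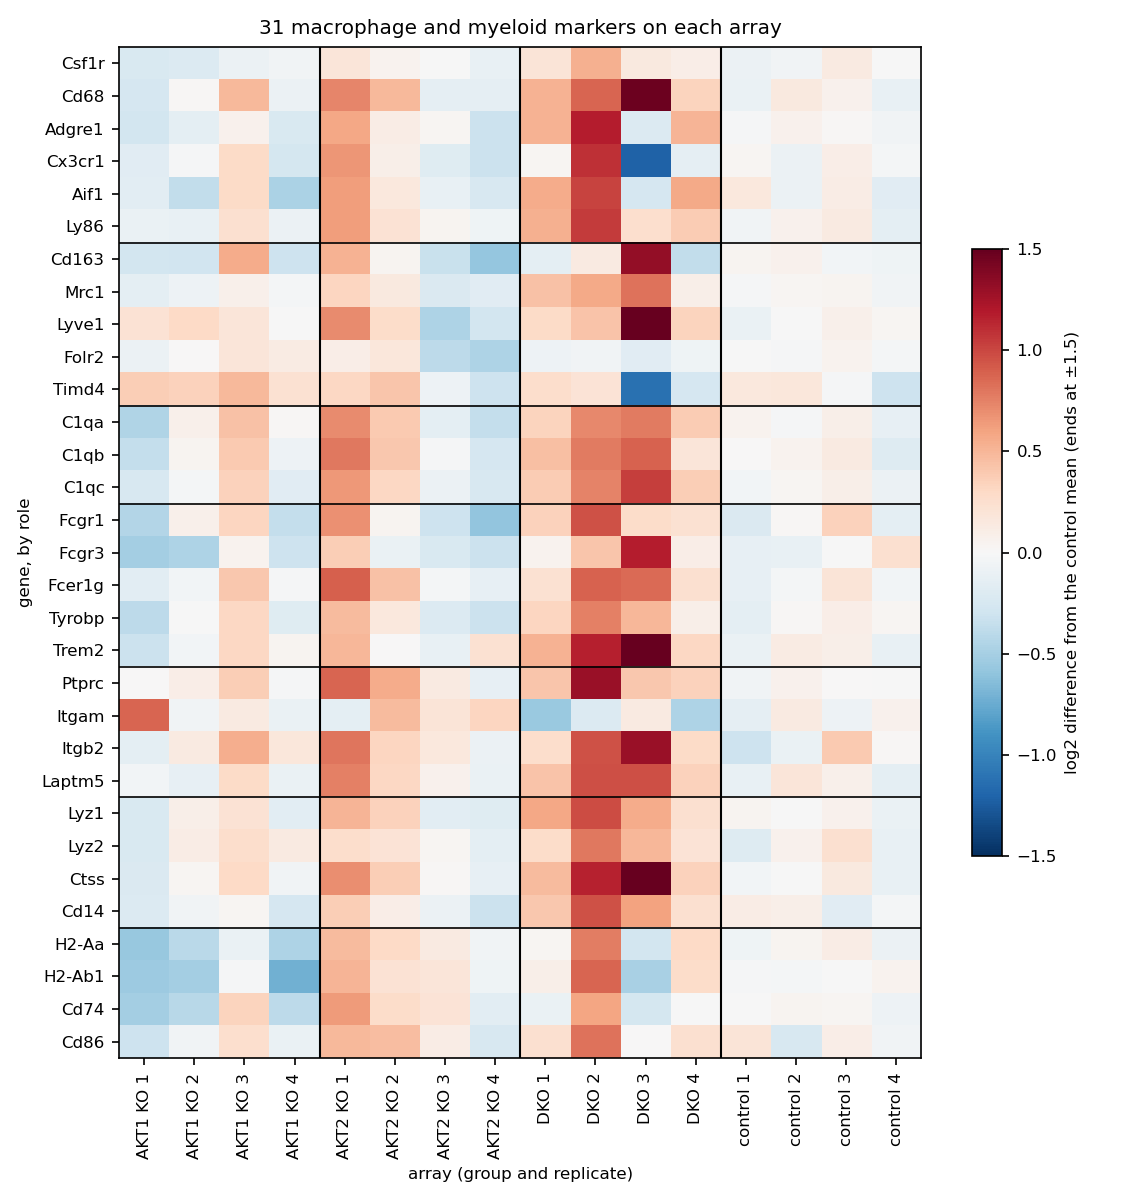
Log2 difference of each of 31 markers from its control mean (colour, ending at ±1.5) on each of the 16 arrays, by group and replicate, with genes in order of role. DKO replicate 2 is red in nearly every row, replicate 3 holds both the strongest red and the strongest blue cells, and AKT2 KO replicate 1 is red in most rows.

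The markers had a larger median SD among the hearts of a group than all genes had. It was 0.242 over the markers, against 0.162 over all genes, in AKT1 KO hearts, 0.358 against 0.114 in AKT2 KO hearts, 0.364 against 0.248 in DKO hearts and 0.107 against 0.0901 in control hearts. On the 4 DKO arrays (replicates 1 to 4), 22, 29, 20 and 19 of 31 markers lay above the highest control, against 44.5%, 43.4%, 41.6% and 42.2% of all genes. Below the lowest control lay 4, 2, 8 and 4 markers, against 36.2%, 38.2%, 43% and 35.5% of all genes. The median difference from the control mean was 0.32, 0.81, 0.50 and 0.24 log2 units. Replicate 2 was thus the highest as a whole.

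The single knockout groups held hearts with high and with low markers. In AKT2 KO hearts, replicate 1 had 30 of 31 markers above the highest control, as had 25% of all genes, and replicate 4 had 22 below the lowest control, as had 30.7% of all genes. Median differences from the control mean were 0.58, 0.27, -0.08 and -0.18 on AKT2 KO replicates 1 to 4. On the AKT1 KO arrays they were -0.23, -0.04, 0.29 and -0.10, with 24 markers above all controls on replicate 3 (25.4% of all genes). On AKT1 KO replicate 1 there were 23 markers below all controls, but 53.6% of all genes lay below them too, and the median over all genes was -0.14. Control arrays lay between -0.06 and 0.08.

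These differences followed the slide in the AKT2 KO group. There, 29 of 31 markers were higher on both arrays of slide 1 (replicates 1 and 2) than on both of slide 2 (replicates 3 and 4), and 18.3% of all genes were. Slide 1 lay 0.56 log2 units above slide 2 in the median of the markers, and -0.01 in that of all genes. In AKT1 KO hearts 15 markers and in DKO hearts 8 were higher on slide 1, against 24.4% and 22.4% of all genes. The DKO count was near the share of all genes. None was lower on slide 1 in either group, against 9.62% of all genes in AKT1 KO and 22.2% in DKO hearts. In control hearts 3 were higher and 6 lower on slide 1, against 29.5% and 13.7% of all genes. The median change of the markers from control within slide 1 was 0.12 for AKT1 KO hearts, 0.41 for AKT2 KO hearts and 0.59 for DKO hearts. Within slide 2 the medians were -0.19 for AKT1 KO hearts, -0.13 for AKT2 KO hearts and 0.37 for DKO hearts. With 2 arrays a group within a slide, 13 markers were called in DKO hearts on slide 1 and 0 on slide 2, where 18% of all genes still were. The signs of the AKT1 KO and AKT2 KO medians thus differed between the slides, and that of the DKO median did not. Each slide held different hearts, so slide and heart cannot be told apart.

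**Figure D4:**
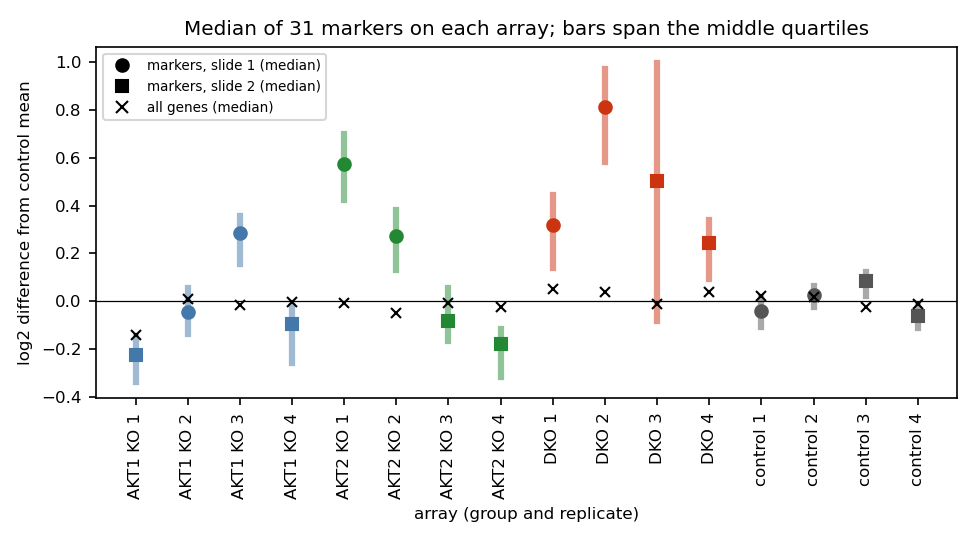
Median log2 difference of 31 markers from their control means on each array (circles for slide 1, squares for slide 2; bars span the middle quartiles of the markers), beside the median of all genes (crosses). Both AKT2 KO arrays of slide 1 lie above 0.25 and both of slide 2 below 0, while all 4 DKO arrays lie above 0.2.

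On DKO replicate 3 the markers lay on both sides of the other DKO arrays. On it 12 lay above and 10 below all 3 other DKO arrays, where 79.3% of all genes lay outside the range of the other DKO arrays. Lying outside that range was thus not particular to the markers. Lyve1 (1.45 log2 units above the mean of the other DKO arrays), Cd163 (1.44), Trem2 (1.27), Fcgr3 (0.99), Ctss (0.98) and Cd68 (0.89) were furthest above. Furthest below were Cx3cr1 (-1.54), Timd4 (-1.19), Aif1 (-0.96), Adgre1 (-0.94) and H2-Ab1 (-0.90). The 4 antigen presentation genes all lay below the other DKO arrays on it and the 3 C1q chains all above. Without this array limma called 14 markers in DKO against control hearts, of which 11 were among the 14 called with it.

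**Figure D5:**
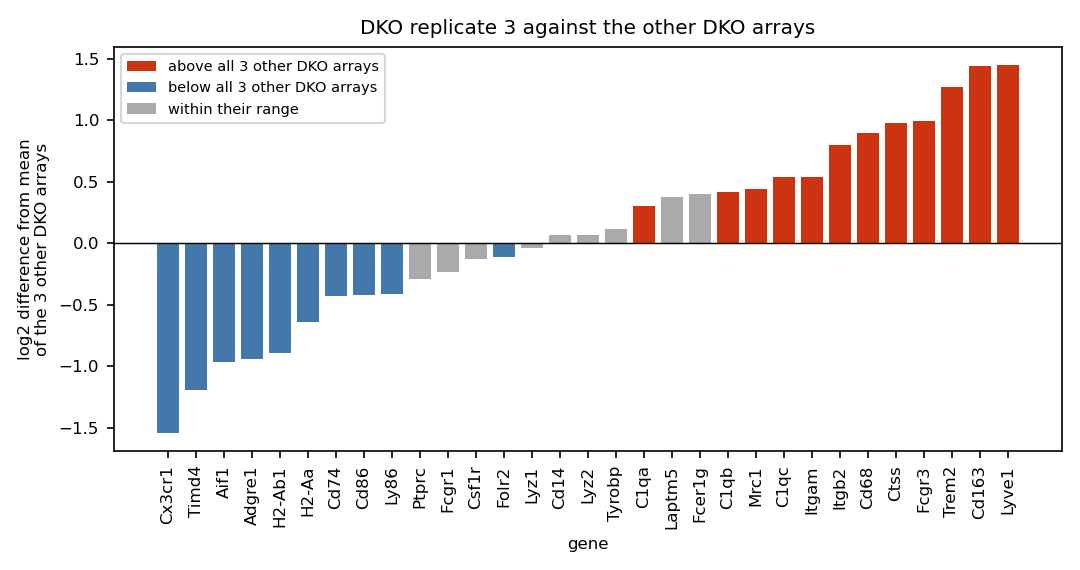
Log2 difference of each of 31 markers on DKO replicate 3 from the mean of the 3 other DKO arrays, in order of size. Red bars (12) lie above all 3 other DKO arrays, blue bars (10) below them and grey bars within their range.

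Set against the AKT1 KO hearts, the DKO hearts had 17 of 31 markers called higher and none lower on the brightest probes. Of all genes 47% were called, 26.7% higher and 20.3% lower. The dimmer Itgam probe was lower in DKO hearts here too (-1.27, limma, probe adjusted p = 3.86e-05). On 8 markers all 4 DKO arrays lay above all 4 AKT1 KO arrays (22.1% of all genes), and the median change was 0.54. Of the lineage genes 5 of 6 were called, Csf1r among them (0.39 ± 0.10 SE, adjusted p = 0.00522). Csf1r read 4.11, 4.45, 4.06 and 4.00 in DKO hearts, against 3.68, 3.71, 3.82 and 3.85 in AKT1 KO hearts, without overlap. H2-Aa and H2-Ab1, not called against control, were called here, at 0.59 ± 0.18 (SE, adjusted p = 0.0156) for H2-Aa and 0.63 ± 0.22 (SE, adjusted p = 0.031) for H2-Ab1. H2-Ab1 read 3.57, 3.61, 4.10 and 3.40 in AKT1 KO hearts, where 3 of the 4 values lay below all controls. Leaving out AKT1 KO replicate 1 lowered the count to 11.

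Against the AKT2 KO hearts 5 markers were called higher in DKO hearts and none lower on the brightest probes. Of all genes 42.1% were called, 23.5% higher and 18.6% lower. The 5 markers were Trem2 (0.83 ± 0.27 SE, adjusted p = 0.0237), Cd14 (0.54 ± 0.16 SE, adjusted p = 0.0134), Mrc1 (0.46 ± 0.14 SE, adjusted p = 0.0168), Ctss (0.66 ± 0.24 SE, adjusted p = 0.0412) and Lyz1 (0.46 ± 0.17 SE, adjusted p = 0.0452). The second Cd14 probe missed the threshold (0.37, limma, probe adjusted p = 0.0609), and the second Cd68 probe passed (0.93, probe adjusted p = 0.00947). The dimmer Itgam probe was lower (-1.03, limma, probe adjusted p = 0.000253). With the mean of the probes of each gene, 6 markers were called higher and 1 lower. None of the 31 had all 4 DKO arrays above all 4 AKT2 KO arrays, which 21.5% of all genes had. Trem2 read -0.36, -0.84, -0.96 and -0.63 in AKT2 KO hearts. The count of calls depended on single arrays: it was 15 without AKT2 KO replicate 1 (14 higher, 1 lower), 10 without DKO replicate 4 and 1 without AKT2 KO replicate 3.

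Between the single knockouts 0 markers were called (0.896% of all genes), and 3 had an unadjusted p below 0.05 (7.34% of all genes), the class II genes H2-Aa, H2-Ab1 and Cd74. H2-Aa read 1.65, 1.47, 1.31 and 1.13 in AKT2 KO hearts, against 0.61, 0.77, 1.08 and 0.71 in AKT1 KO hearts. These values did not overlap (3.91% of all genes had all 4 AKT2 KO arrays above all 4 AKT1 KO arrays), but the difference of 0.60 ± 0.18 (SE, adjusted p = 0.212) did not pass. The departure from additivity, which asks whether DKO hearts differ from the sum of both single changes, was called for Cd14 alone among the markers (0.66 ± 0.22, adjusted p = 0.0422), against 26% of all genes (15.9% above 0). The median departure of the markers was 0.40, against 0.05 over all genes. No marker was called when control replicate 1, 2 or 4, among other arrays, was left out, and the count was 5 without DKO replicate 3 (4 higher, 1 lower) or 4. With the mean of the probes of each gene, Cd14 was not called and another marker was called lower. The second Cd14 probe gave a departure of 0.44 (limma, probe adjusted p = 0.147), and the dimmer Itgam probe -1.21 (probe adjusted p = 0.00254).

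Other macrophage genes gave values beside the markers, and the counts below stand against 45.6% of all genes called in DKO hearts, 24.4% higher and 21.2% lower. Of 12 measured genes of the CSF1 axis and of macrophage transcription factors, 5 were called higher in DKO hearts and none lower. Cebpa and Cebpb, transcription factors of myeloid and other cells, changed by 0.69 ± 0.15 (SE, adjusted p = 0.002) and by 0.80 ± 0.19 (SE, adjusted p = 0.00301). Csf2rb, the shared receptor chain for GM-CSF, interleukin 3 and interleukin 5, changed by 1.0 ± 0.29 (SE, adjusted p = 0.0103). Csf1, the ligand of CSF1R, did not pass (-0.14 ± 0.14, adjusted p = 0.443), and Spi1, which encodes PU.1, was well above background in no group.

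Of 10 measured genes of repair and lipid handling, 5 were called higher and 1 lower. Lgals3, the carbohydrate-binding galectin 3, read 3.48, 3.71, 4.30 and 3.42 in DKO hearts, against -0.41, -0.36, -0.27 and -0.46 in control hearts, far apart on every array (4.10 ± 0.17, adjusted p = 1.28e-09). Gpnmb, a lysosomal glycoprotein, changed by 3.23 ± 0.25 (SE, adjusted p = 2.89e-07), and Cd63, a tetraspanin of late endosomes, by 1.05 ± 0.11 (SE, adjusted p = 2.89e-06). These changes exceeded that of every one of the 31 markers on its brightest probe, and all 3 genes are made by other cells as well. The change of Cd63 was smaller in size than those of the second Cd68 probe (1.19) and the dimmer Itgam probe (-1.10). Retnla, a secreted protein of alternatively activated macrophages in mice, was the 1 called lower (-1.38 ± 0.23, adjusted p = 0.000228), and was named after its value was seen. The inflammatory list had 4 measured genes, of which the monocyte chemokines Ccl2 (1.52 ± 0.41, adjusted p = 0.00716) and Ccl7 (1.21 ± 0.28, adjusted p = 0.00313) were called higher and Tnf, an inflammatory cytokine, lower (-0.67 ± 0.17, adjusted p = 0.00589). Ccl2 read 0.80, 0.96, 3.36 and 1.58 in DKO hearts, highest on replicate 3, against 0.05, 0.41, 0.17 and -0.01 in control hearts.

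Markers of other blood cells were counted in the same way. Of 9 monocyte markers (summed level 120.9 to 158.2 in DKO hearts, against 104 to 113.3 in control hearts) 4 were called higher and 1 lower. The higher ones with the smallest adjusted p were Ace, the angiotensin-converting enzyme, which endothelium also makes (0.61 ± 0.10, adjusted p = 0.000136), S100a4, a calcium-binding protein shared with fibroblasts (1.59 ± 0.34, adjusted p = 0.00153), and Plac8, of blood leukocytes (1.78 ± 0.45, adjusted p = 0.00498). Ccr2, the chemokine receptor of recruited monocytes, was the other called higher. It read -3.28, -2.01, -1.64 and -3.92 in DKO hearts, against -3.93, -3.77, -3.69 and -3.96 in control hearts, with replicates 2 and 3 high (1.13 ± 0.42, adjusted p = 0.039, named after its value was seen). None of 4 measured neutrophil (summed level 42.5 to 57.8 in DKO hearts, against 46.7 to 58.3 in control hearts), 3 dendritic cell, 4 T cell or 5 mast cell markers was called, and of the B cell markers Cd22 was called lower and of the NK cell markers Gzma higher. Cxcr2, Flt3, Xcr1, Cd8a, Cd79a, Ms4a1 and Ncr1, which define neutrophils, dendritic cells, T cells, B cells and NK cells, were not well above background on all arrays of any group. No gene of these lists was called in AKT1 KO or AKT2 KO hearts. The part of other blood cells in the values of the markers was not tested.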

How the data were processed

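RNA from 16 heart apices was labelled with Cy3 and hybridised to 1-colour Agilent arrays, per the labels' protocols. The deposited scanner files hold background-subtracted signal intensities from Agilent Feature Extraction 12.0.3.1, per the file headers. The authors' own deposited log2 values served as an alternative.

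Here log2 intensity minus the 75th percentile of all non-control spots of an array was used. Control spots and 118 probes flagged as outliers were left out. A probe was kept where every one of the 4 arrays of some group read it well above background (19340 kept probes with a symbol, from 32994 of 56605 probes). Symbols came from the accession of each probe in the RefSeq table for GRCm38.p6, while the array headers name mm9, so gene positions from that table are not given, and the promoter windows carry the build of their own table. The brightest kept probe stood for a gene.

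One mean per group was fitted over 16 arrays with limma 3.58.1 in R 4.3.3, with Benjamini-Hochberg adjustment over 13725 genes in each of 7 comparisons and a threshold of 0.05. Where several limma p-values stand in a sentence, all are adjusted in this way unless called probe adjusted, which runs over all kept probes. Named genes were the markers themselves and, in every other list, up to 3 called genes with the smallest adjusted p in DKO against control hearts, with exceptions stated. One gene of the monocyte list is not reported here by name. The markers and lists were chosen with earlier results of these data known. The number of arrays limits the precision. Each p-value rests on 1 spread per gene, pooled over the hearts of all 4 groups. The wider spread of the DKO hearts thus also enters the tests of the single knockouts. Fitting only the 2 groups compared called 182 of all genes in AKT1 KO hearts, against 109, and 42 in AKT2 KO hearts, against 18. No marker was called in either.

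Same-numbered replicates deviated together in DKO and control hearts (correlations of 0.14 to 0.316) and in AKT2 KO and control hearts (0.141 to 0.365), but not in AKT1 KO and control hearts (-0.217 to 0.38). In control, AKT2 KO and DKO hearts, same-numbered arrays shared a slide and a row, so number and array position cannot be told apart. Of the AKT1 KO arrays only replicate 2, with the correlation of 0.38, shared the position of its control. Alternatives covered background correction, normalization, the filter on dim probes, probes per gene, array weights, slides, the groups fitted, the replicate block and each array left out.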

Additional observations from a re-analysis of the deposited data

Results flagged for a closer look

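For each tested marker and group, the array furthest from the other 3 was compared with the whole range of the group, and 6 of 124 such groups had an array far from the rest. Chance flags about 1 in 20 groups. AKT1 KO replicate 3 was far above the other AKT1 KO arrays for Ly86, at 0.83 on the log2 scale of levels, where the others lay at 0.47 to 0.50. The same array was high for Cd163, at 0.33 against -0.53 to -0.50 on the others, and for Cd74, at 3.54 against 2.70 to 2.82. DKO replicate 2 was far above the other DKO arrays for Ptprc, at 0.26 against -0.69 to -0.62, and for Fcgr1, at -1.27 against -2.0 to -1.89. DKO replicate 3 was far above them for Lyve1, at 0.87 against -0.64 to -0.50. No explanation of these arrays was tested.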

How the results depend on the processing

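The count of 14 markers higher in DKO than in control hearts was 9 with no filter on dim probes, 0 within slide 2 (2 arrays a group), 17 with the slide as a block, 21 with array weights (20 higher, 1 lower) and 8 to 17 with 1 array left out. With the mean of the probes of each gene, 14 were called higher and 1, Itgam, lower. The 17 higher in DKO than in AKT1 KO hearts became 8 when the fit held only those groups, 7 within slide 1, 4 within slide 2 and 11 to 21 with 1 array left out. Quantile normalization and the authors' deposited values each gave 12 higher and 1 lower in that comparison. The mean of the probes of each gene gave 17 higher and 1 lower. The 5 higher in DKO than in AKT2 KO hearts became 3 with quantile normalization and with the authors' deposited values, 2 with no filter, 14 with array weights (13 higher, 1 lower), 0 when the fit held only those groups, 0 within either slide and 1 to 15 (14 higher, 1 lower) with 1 array left out. AKT2 KO against AKT1 KO hearts gave 2 calls with array weights, against 0. The 1 departure from additivity became 0 with no filter and within either slide, 12 with array weights (11 higher, 1 lower) and 0 to 5 with 1 array left out. With the mean of the probes of each gene that call was replaced by 1 lower call of another marker. AKT1 KO and AKT2 KO hearts gave 0 calls against control under every alternative run. The median change of the markers was 0.39 to 0.55 in DKO, 0.01 to 0.23 in AKT2 KO and -0.12 to 0.03 in AKT1 KO hearts with 1 array left out. No called marker changed sign in DKO against control hearts, but the median in AKT2 KO hearts, 0.15, was -0.13 within slide 2, and that in AKT1 KO hearts, -0.02, was 0.12 within slide 1. With the replicate number as a block, 13 markers were called in DKO hearts and C1qa was the 1 lost; the block moved no other count of calls by over 1.5 times. Among the called markers, C1qa missed the threshold under 17 of 28 alternatives, C1qb under 11, Itgb2 under 9, Ptprc under 7, Lyz2 under 6, Ly86, C1qc and Laptm5 under 2 and each of the other 6 under 1 (within slide 2), and the cause was not tested.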

Other observations

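The summed linear level of all 31 tested markers was 104.6 to 134.9 on the AKT1 KO arrays, 117.1 to 157.8 on the AKT2 KO arrays, 126.7 to 183.1 on the DKO arrays and 115.3 to 123.6 on the control arrays. Bright genes weigh most in such a sum. On AKT1 KO replicate 1 it was 124.8, above every control, although 23 markers lay below all controls there. The leukocyte surface group, which holds the bright Itgam probe, made up 52.3 of it, against 26.6 to 31.9 on the control arrays. The neutrophil markers, none of them called, summed to 109.6, 58.5, 50.3 and 53.9 on AKT1 KO replicates 1 to 4. The high AKT1 KO sum was thus that of replicate 1 alone. On AKT2 KO replicates 1 to 4 the neutrophil markers summed to 60.3, 92.1, 67.2 and 64.7, against 46.7 to 58.3 in control hearts.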
